A study of Mus musculus with 24 samples.

Results

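The genes described here make and load the peptides that MHC class I molecules show at the cell surface. They were chosen by symbol: Psmb8, Psmb9, Psmb10, Tap1, Tap2, Tapbp, B2m, H2-K1, H2-D1 and Nlrc5, all 10 of them present among 17545 genes in the deposited table. Psmb9 led to the choice, because it was lower at day 7 than at day 0 in wild type and higher in Cdc14ab KO. Those values chose the set, so the changes by day 7 in these 2 genotypes are given below as a description, with no test.

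The cells were mouse embryonic stem cells derived from blastocysts, in 4 genotypes: Cdc14ab KO, Cdc14b KO, Cdc14a KO and wild type. Cdc14a and Cdc14b encode phosphatases of the Cdc14 family. Each genotype was given by 2 clones, numbered 1 and 3, so there were 8 lines, each sampled at days 0, 2 and 7, with 1 library per line and day and 24 libraries in all. At day 0 all lines had been cultured with LIF on feeder cells and passed over gelatin at low density to deplete the feeders. Differentiation towards the neural lineage was started in N2B27 with EGF and FGF2, and both factors were withdrawn at day 6, when the cells were plated densely on laminin. No promoter, Cre or deleted exon is named in the sources used here. The replicates are clones, so p-values measure the spread between 2 clones per group, and in bulk RNA fewer cells of a type cannot be told apart from less RNA per cell.

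As background, the proteasome cuts cytosolic proteins into peptides. In cells exposed to interferon, and in immune cells, the catalytic subunits encoded by Psmb5, Psmb6 and Psmb7 are replaced in new particles by those encoded by Psmb8, Psmb9 and Psmb10, which gives the immunoproteasome. Peptides are carried into the endoplasmic reticulum by the TAP transporter (Tap1 and Tap2) and loaded with the help of tapasin (Tapbp) onto class I heavy chains (H2-K1 and H2-D1) bound to beta-2-microglobulin (B2m). Nlrc5 is a transactivator of class I genes. Undifferentiated embryonic stem cells are known for low surface class I.

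Libraries held 6422883 to 10856721 recovered reads, and the 2 clones of a group correlated at 0.89 to 0.96 across genes. The lowest of these correlations was that of Cdc14ab KO at day 0. Clone 1 of that group had the fewest genes detected, 16628, and 8.7% of its reads came from Gm42418. All 18 pluripotency markers were measured, and their summed level was 40270.2 to 64426.4 normalized counts at day 0, 15033.7 to 40535 at day 2 and 13213 to 33156.8 at day 7. The labelled knockouts could not be checked by the targeted genes. Cdc14b had 101 to 325 normalized counts in Cdc14ab KO and 96.7 to 263 in Cdc14b KO, against 137 to 288 in Cdc14a KO and 104 to 263 in wild type. Reads came from the 3′ end, which checks nothing where the deletion leaves that end in place. Cdc14a was low in every genotype, at 4.22 to 28.0 normalized counts. Wild type clone 3 at day 7 carries 1 description that calls it not differentiated, while its title and treatment give day 7, and it was used as day 7. The lines labelled as lacking Cdc14b (Cdc14ab KO and Cdc14b KO, called Cdc14b-null below by their labels) also differed in sex-chromosome transcripts from the Cdc14b-intact lines (Cdc14a KO and wild type). The summed level of 4 Y-linked genes was 4.44 to 65.0 normalized counts in the null libraries, against 68.4 to 546 in the intact libraries, and the part of this in any result below was not tested.

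Of the 10 genes, 7 lie on chromosome 17 in the major histocompatibility complex region (GRCm38, GENCODE M21). Psmb9 (34181987 to 34187764, minus strand) and Tap1 (34187553 to 34197225, plus strand) run head to head and overlap by 212 bases. Psmb8 (34197721 to 34201454) starts 495 bases beyond Tap1, and Tap2 (34203527 to 34216321) 2072 bases beyond Psmb8. Tapbp (33915899 to 33929292), H2-K1 (33996017 to 34000347, minus strand) and H2-D1 (35262730 to 35267499) lie on the same chromosome. B2m is on chromosome 2 (122147686 to 122153083). Psmb10 (105935735 to 105938444, minus strand) and Nlrc5 (94434356 to 94527272) are both on chromosome 8. Every gene is annotated as protein coding.

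Psmb9 and Tap1 share a promoter region, which is shown because the levels of these neighbours differed from each other by line and day, as described below. Their RefSeq windows (GRCm38.p6, 250 bases before to 50 after the start) have 275 bases in common, and the starts are 226 bases apart. The windows were searched on both strands for the interferon-response core (GAAA, any 2 bases, GAAA), the STAT site TTCNNNGAA, the CCAAT box and the CRE TGACGTCA. The first pair of sequences below is the same CCAAT box read from each gene's strand, the next pair shows the corresponding box of the class I heavy chain genes, and the last pair shows the interferon-type letters found. Capitals mark the motif.
Psmb9 (chr17:34187321-34187350, minus strand): gcgcagccgctgATTGGaaagccgagcccc
Tap1 (chr17:34187322-34187351, plus strand): gggctcggctttCCAATcagcggctgcgcg
H2-K1 (chr17:34000322-34000351, minus strand): gatcaccaagaaCCAATcagtgtcgccgcg
H2-D1 (chr17:35263029-35263058, plus strand): agattccaggagCCAATcagcgtcgccgcg
B2m (chr2:122147538-122147567, plus strand): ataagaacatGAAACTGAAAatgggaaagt
Psmb8 (chr17:34198088-34198117, plus strand): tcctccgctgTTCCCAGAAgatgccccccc

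A promoter was at hand for 8 of the 10 genes. The interferon-response core occurred in 3.44% of 32851 RefSeq promoters of this length and, among these 8, in B2m. TTCNNNGAA occurred in 8.3% and, among these 8, in Psmb8. CCAAT occurred in 37.41% of promoters, and it was present in the windows of Psmb9, Tap1, Tapbp, B2m, H2-K1 and H2-D1. TGACGTCA, found in 1.79%, was in none of the 8 windows, and the Psmb10 window held none of the searched letters. These are letter matches only.

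Expression is given as normalized counts (reads divided by a size factor of the library), and differences are on the scale of log2(normalized count + 1). A gene was called when its adjusted p from limma, over 16158 genes, was under 0.05. Of the 10 genes, 9 passed the low-value filter, a minimum of 10 normalized counts in 2 or more libraries. Tap2 did not pass: it had 0 to 12.7 normalized counts, with 5 libraries at 0, and is given as values.

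**Figure D1:**
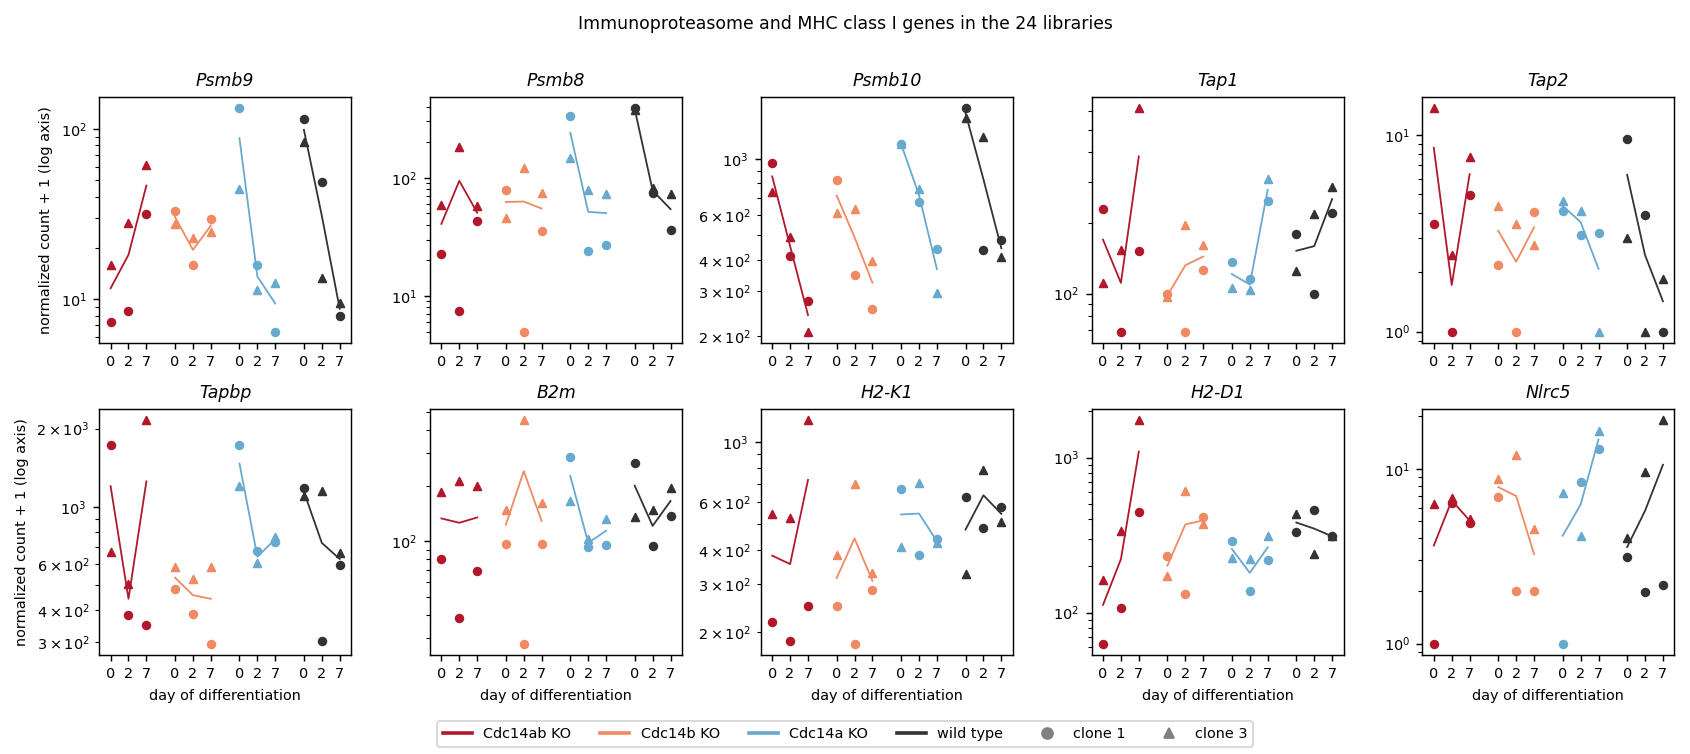
Normalized counts plus 1 (log axis) of the 10 genes by genotype and day of differentiation, with circles for clone 1, triangles for clone 3 and lines through the group means. At day 0 Psmb9 and Psmb8 are low in the Cdc14b-null lines and high in Cdc14a KO and wild type, while Psmb10 is lower at day 7 than at day 0 in every line.

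Psmb9 encodes the inducible subunit beta1i. In Cdc14ab KO it had 6.33, 7.53 and 30.5 normalized counts at days 0, 2 and 7 in clone 1, and 14.8, 26.9 and 60.4 in clone 3. In Cdc14b KO it had 32.1, 15.0 and 28.4 in clone 1, and 26.7, 22 and 23.6 in clone 3. In Cdc14a KO it had 131, 14.8 and 5.43 in clone 1, and 43.1, 10.4 and 11.4 in clone 3. In wild type it had 113, 47.4 and 6.98 in clone 1, and 82.1, 12.3 and 8.54 in clone 3. The order of genotypes was thus turned round between the first and last day, with both null genotypes below both intact genotypes at day 0 and above them at day 7. As a description, the change by day 7 was 2.03 ± 0.71 (log2, SE) in Cdc14ab KO and -3.48 ± 0.71 in wild type. Ranked by group mean, the highest of the 12 groups was wild type at day 0 (97.6 ± 21.9 normalized counts, SD, n = 2) and the lowest was wild type at day 7 (7.76 ± 1.10). Neighbours in that order overlapped in their clones, except that both Cdc14b KO clones at day 7 lay above those at day 2. At the top, Cdc14a KO at day 0 averaged 87.1 ± 62.2, and next to the bottom Cdc14a KO at day 7 averaged 8.41 ± 4.22.

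The single knockouts were not used in choosing Psmb9, and there it was tested. By day 7 Psmb9 fell in Cdc14a KO by 3.10 ± 0.71 on the log2 scale (limma, Benjamini-Hochberg adjusted p = 0.011), in both clones. In Cdc14b KO its change was -0.17 ± 0.71 (limma adjusted p = 0.93), with -0.17 in each clone. The difference between these 2 changes, Cdc14b KO against Cdc14a KO, was 2.92 ± 1.00, with an unadjusted p of 0.0086 from limma and an adjusted p of 0.58, so it did not pass the test. At day 7 itself Psmb9 was 1.59 ± 0.71 higher in Cdc14b KO than in Cdc14a KO, which did not pass either (limma adjusted p = 0.39). The fall in Cdc14a KO leaned on single libraries: without clone 1 at day 0 it was -2.30 (limma adjusted p = 0.17), and without clone 1 at day 7 it was -2.62 (adjusted p = 0.1).

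Psmb8 encodes beta5i, the counterpart of Psmb5. At day 7 it had 42.2 and 57.1 normalized counts in the Cdc14ab KO clones, 34.4 and 73.4 in Cdc14b KO, 26.1 and 72.4 in Cdc14a KO, and 34.9 and 71.7 in wild type. At day 0 it had 21.5 and 58.0 in Cdc14ab KO, 78.4 and 44.4 in Cdc14b KO, 332 and 147 in Cdc14a KO, and 386 and 375 in wild type. The genotypes overlapped at day 7, while at day 0 both null genotypes lay below both intact genotypes. Between days, Psmb8 differed by -0.23 ± 1.26 in Cdc14b KO (limma adjusted p = 0.95). In Cdc14a KO the difference was -2.32 ± 1.26 (limma adjusted p = 0.26), and neither passed the test. As a description, it was 0.46 ± 1.26 in Cdc14ab KO and -2.90 ± 1.26 in wild type. At day 2 the clones of the null genotypes were far apart: Psmb8 had 6.45 and 180.0 normalized counts in Cdc14ab KO, and 3.99 and 120 in Cdc14b KO, clone 3 being the higher in both. Summed feeder fibroblast markers at day 2 were higher in clone 3 of every genotype. They were 1363.02 in clone 1 and 5302.82 in clone 3 of Cdc14ab KO, and 1271.8 and 10510.7 in Cdc14b KO. In Cdc14a KO they were 1770.74 and 3647.37, where Psmb8 had 23.2 and 77.8 normalized counts. In wild type they were 1602.39 and 5595.64, where Psmb8 had 73.5 and 80.6. The same sum was 1975.54 to 4195.51 over the libraries of day 0 and 2931.81 to 8783.34 over those of day 7. Whether its reads came from feeder cells, and the part of these markers in the Psmb8 values, were not tested.

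Psmb10 encodes beta2i, the counterpart of Psmb7, and it moved in 1 direction everywhere. It was lower at day 7 than at day 0 in 8 of 8 lines, by 0.63 to 1.95 on the log2 scale, where 8.47% of the genes tested were lower in all 8. At day 7 it had 275 and 207 normalized counts in Cdc14ab KO, 254 and 393 in Cdc14b KO, 439 and 295 in Cdc14a KO, and 477 and 410 in wild type. At day 0 it had 963 and 741 in Cdc14ab KO, 822 and 611 in Cdc14b KO, 1146 and 1143 in Cdc14a KO, and 1583 and 1448 in wild type. In every group the day 7 clones lay below the day 0 clones. Psmb10 fell in Cdc14a KO by 1.67 ± 0.40 (limma adjusted p = 0.015). In Cdc14b KO the change was -1.16 ± 0.40, which did not pass (adjusted p = 0.11). Without clone 1 at day 0, without clone 3 at day 0 and without clone 3 at day 7 of Cdc14a KO, the fall of Psmb10 there lost its call (adjusted p 0.11, 0.066 and 0.16).

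**Figure D2:**
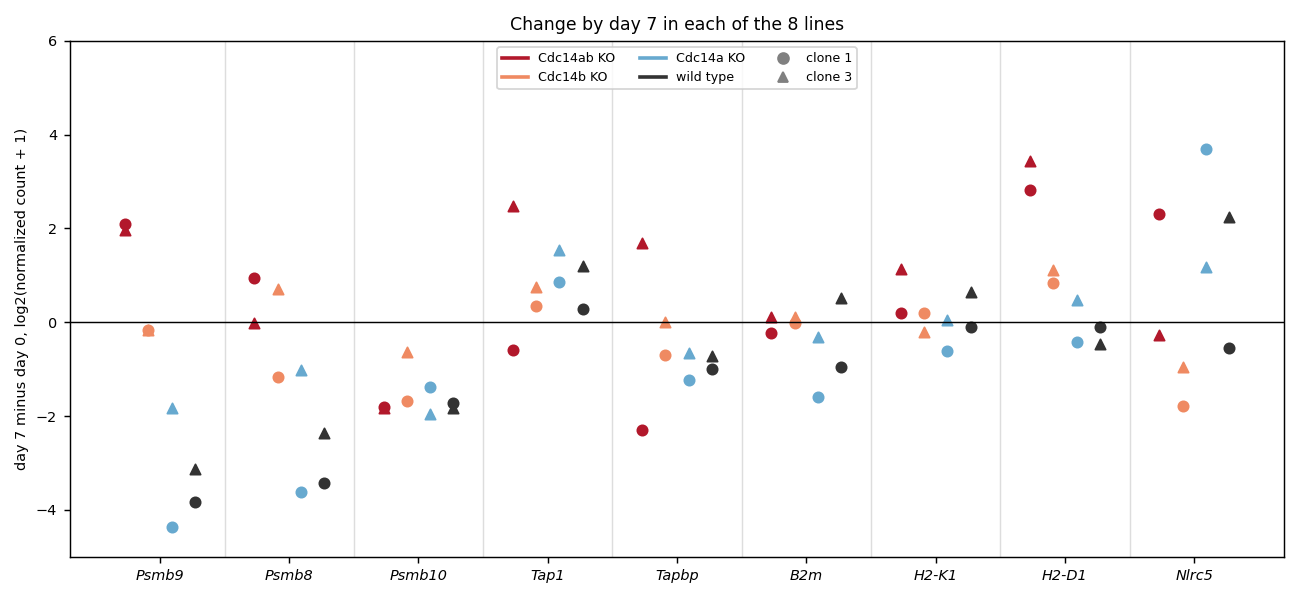
Change by day 7 (day 7 minus day 0, log2 of normalized count plus 1) of the 9 genes that passed the filter, in each of the 8 lines, coloured by genotype. Psmb10 is below 0 in 8 of 8 lines, Tap1 above 0 in 7, and Psmb9 runs from -4.36 in a Cdc14a KO clone to 2.10 in a Cdc14ab KO clone. Of all genes tested, 8.47% were below 0 in 8 of 8 lines, and the share above 0 in 7 was not counted.

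Over the 9 genes that passed the filter, Psmb9 and Psmb10 were the 2 called in Cdc14a KO at day 7 against day 0, where 9.26% of all genes tested were called. The median change of the 9 was -0.94, against 0.03 over all genes. In Cdc14b KO, 0 of 9 were called at day 7 against day 0 with limma, edgeR or DESeq2 (1 at an unadjusted limma p under 0.05), where limma called 4.62% of all genes. In the comparison of these 2 changes with each other, 0 of 9 were called with any of these tools (2 at an unadjusted limma p under 0.05), where limma and edgeR called 0% of all genes (1265 at an unadjusted limma p under 0.05) and DESeq2 called 0. The 2 knockouts at day 7 likewise gave 0 of 9 with each tool (1 at an unadjusted p under 0.05), with 0% of all genes called by limma and edgeR (1922 at an unadjusted limma p under 0.05) and 222 genes by DESeq2. Averaged over both single knockouts, a comparison chosen after the data were seen, Psmb10 fell by 1.41 (limma adjusted p = 0.0025) and Psmb9 by 1.63 (adjusted p = 0.03), 2 of 9 where 17.8% of all genes were called. For Psmb9 this average joins -3.10 in Cdc14a KO and -0.17 in Cdc14b KO, so it shows no fall common to both. The Psmb9 call in that average was lost without clone 1 of Cdc14a KO at day 0 (-1.24, adjusted p = 0.15) and without 5 of the other 7 libraries, each left out alone, while Psmb10 kept its call without each of the 8. In all, members were tested with 3 tools in 36 contrasts, and limma called a member in 2 of them, edgeR in the same 2 and DESeq2 in 4. The 2 further DESeq2 calls were Psmb9 in Cdc14a KO at day 2 against day 0 (limma -2.51 ± 0.71, adjusted p = 0.12, where limma called 0.427% of all genes) and H2-D1 in Cdc14ab KO at day 7 against day 2 (limma 2.21 ± 0.69, adjusted p = 0.13, where limma called 0.798%).

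The constitutive catalytic subunits were measured in the same libraries. Psmb5 was lower at day 7 in 8 of 8 lines, by 0.53 to 2.51 on the log2 scale, as were 8.47% of the genes tested. In Cdc14a KO it fell by 1.24 ± 0.39 (limma adjusted p = 0.05 after rounding, just under the threshold). Psmb6, the most abundant in reads, stayed between 5486 and 14264 normalized counts in all 24 libraries. Psmb7 was called between the null and intact lines at day 7. It had 2035 and 823 normalized counts in Cdc14ab KO and 2894 and 1831 in Cdc14b KO, against 340.0 and 457 in Cdc14a KO and 778 and 449 in wild type. The null lines were higher by 1.84 ± 0.45 (limma adjusted p = 0.031).

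Set against its constitutive counterpart within the same library, each inducible subunit gave another pattern. Psmb9 reads were 0.0868% to 0.553% of Psmb6 reads in the null lines at day 0, against 0.635% to 1.84% in the intact lines. At day 2 the shares overlapped, at 0.0776% to 0.489% in null lines and 0.0864% to 0.573% in intact lines. At day 7 the shares were 0.282% to 0.998% in null lines and 0.0414% to 0.121% in intact lines, in the opposite order to day 0. This is a description, since Psmb9 values of those 2 days in wild type and Cdc14ab KO chose the gene. Psmb6 itself did not overlap at day 7, with 6058 to 8360 normalized counts in null lines and 9384 to 13105 in intact lines. Psmb8 reads were 0.455% to 4.78% of Psmb5 reads in null lines at day 0, against 9.0% to 37.6% in intact lines, and by day 7 the ranges overlapped (3.47% to 7.05% in null, 2.75% to 12.3% in intact lines). Psmb10 reads were 8.79% to 25.2% of Psmb7 reads in null lines at day 7, against 61.3% to 129% in intact lines, with overlapping ranges at day 0. At day 7 Psmb10 itself overlapped, with 207 to 393 normalized counts in null lines and 295 to 477 in intact lines. Psmb7 did not overlap, with 823 to 2894 in null lines and 340 to 778 in intact lines. These shares of reads compare libraries, and are not ratios of subunits in a particle.

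**Figure D3:**
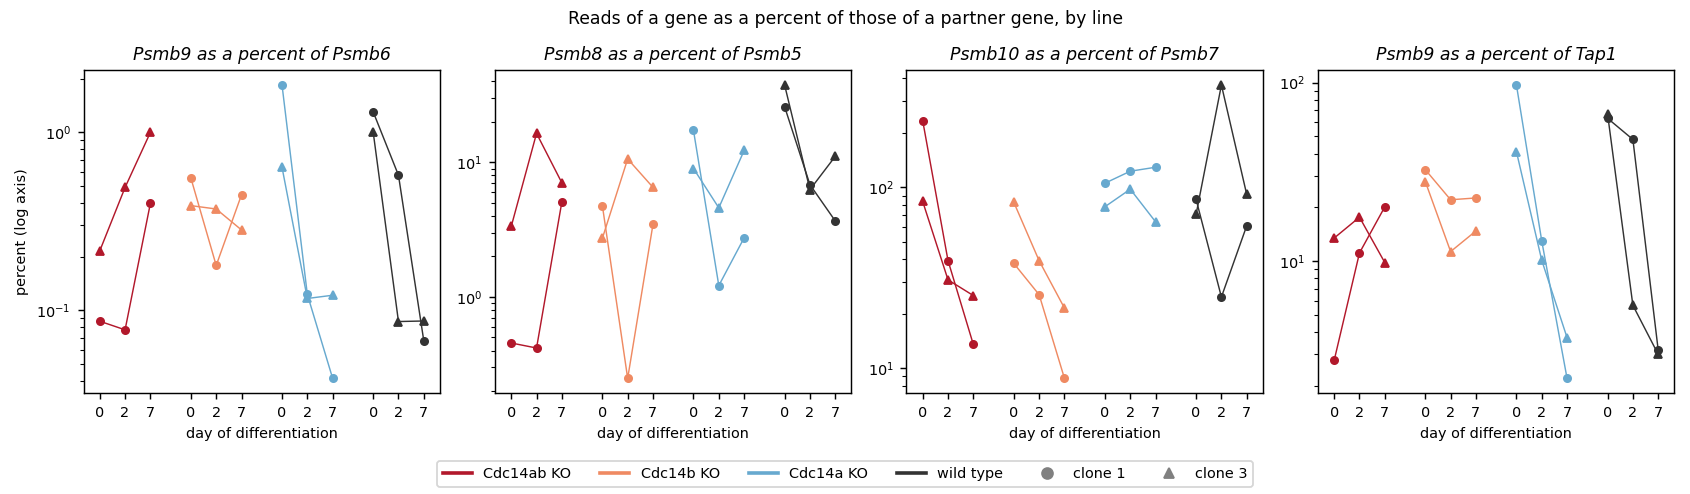
Reads of Psmb9, Psmb8 and Psmb10 as a percent of those of Psmb6, Psmb5 and Psmb7, and of Psmb9 as a percent of Tap1 (log axes), by genotype and day, with 1 line per clone. Psmb9 over Psmb6 at day 7 is 0.282% to 0.998% in the Cdc14b-null lines and 0.0414% to 0.121% in the intact lines. This is a description, since Psmb9 values of that day were among those that chose it.

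Tap1 did not follow Psmb9, the gene that shares its promoter region. It was higher at day 7 than at day 0 in 7 of 8 lines, the exception being Cdc14ab KO clone 1 (-0.59). The share of all genes higher in that many lines was not counted. At day 7 Tap1 had 151 and 616 normalized counts in Cdc14ab KO, 126 and 160.0 in Cdc14b KO, 246 and 306 in Cdc14a KO, and 220 and 284 in wild type. At day 0 it had 228 and 110 in Cdc14ab KO, 98.6 and 95.6 in Cdc14b KO, 135 and 105 in Cdc14a KO, and 179 and 123 in wild type. Its change was 0.54 ± 0.60 in Cdc14b KO (limma adjusted p = 0.68). Cdc14a KO had a change of 1.20 ± 0.60 (limma adjusted p = 0.21), and neither passed. Over the 24 libraries the log2 levels of Psmb9 and Tap1 had a Pearson r of -0.07. Psmb9 reads were 2.78% to 32.5% of Tap1 reads in null lines at day 0, against 41.0% to 96.9% in intact lines. They were 11.1% to 22.1% at day 2 in null lines, against 5.65% to 48.0% in intact lines, and 9.81% to 22.6% at day 7 in null lines, against 2.20% to 3.72% in intact lines. The shares of days 0 and 7 are a description, since Psmb9 values of those days chose it. The annotated genes overlap head to head, and the library kit keeps the strand per the labels' protocols, which also name the strand setting of the counter that suits the kit. Whether the counting used it is not given in the sources used here.

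Tap2, which encodes the partner of Tap1 in the transporter, was hardly detected. Its highest value was 12.7 normalized counts, in Cdc14ab KO clone 3 at day 0, and its median over the 24 libraries was 2.35. Tapbp, which encodes tapasin, had 351 and 2152 normalized counts at day 7 in Cdc14ab KO and 296 and 586 in Cdc14b KO, against 732 and 766 in Cdc14a KO and 596 and 660 in wild type. At day 0 it had 1729 and 671 in Cdc14ab KO, 481 and 583 in Cdc14b KO, 1728 and 1204 in Cdc14a KO, and 1185 and 1097 in wild type. The 2 Cdc14ab KO clones moved in opposite directions, by -2.30 in clone 1 and 1.68 in clone 3. Tapbp was lower at day 7 in 6 of 8 lines, and the share of all genes lower in that many was not counted.

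H2-D1, which encodes a classical class I heavy chain, had 62.0, 107 and 444 normalized counts at days 0, 2 and 7 in Cdc14ab KO clone 1, and 160.4, 334 and 1739.95 in clone 3. In Cdc14b KO it had 229, 132 and 412 in clone 1, and 171, 608 and 373 in clone 3. In Cdc14a KO it had 289, 137 and 216 in clone 1, and 224, 222 and 309 in clone 3. In wild type it had 332, 455 and 310.5 in clone 1, and 429, 239 and 309 in clone 3. All 4 null lines were higher at day 7 than at day 0, by 0.84 to 3.43 on the log2 scale, while wild type was slightly lower in both clones and the Cdc14a KO clones differed in sign. The share of all genes with this pattern was not counted. In Cdc14b KO the change was 0.98 ± 0.69 (limma adjusted p = 0.48). Cdc14a KO had 0.02 ± 0.69 (limma adjusted p = 0.99), and neither passed the test. At day 7 H2-D1 was 1.5 ± 0.69 higher in Cdc14ab KO than in wild type, which did not pass (limma adjusted p = 0.38), and the difference was 0.52 without Cdc14ab KO clone 3 and 2.49 without clone 1.

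H2-K1, the other classical heavy chain measured, showed no such division, its null and intact lines overlapping at day 7 through Cdc14ab KO clone 3 alone. It ranged from 180.4 to 1200.25 normalized counts, and at day 7 it had 249 and 1200.25 in Cdc14ab KO and 286 and 330 in Cdc14b KO, against 438 and 424 in Cdc14a KO and 578 and 509 in wild type. B2m ranged from 26.9 to 452 normalized counts, both ends in Cdc14b KO at day 2, with clone 1 the lowest and clone 3 the highest. That clone 3 library also had the highest summed feeder fibroblast markers of all (10510.7 normalized counts over 24 genes, against a median of 3545.37), and their part in its B2m level was not tested. Across the 24 libraries B2m went with Psmb8 (Pearson r 0.80) and H2-K1 (0.76) more closely than with Psmb9 (0.42), values that share library and scaling. Class I genes are alike in sequence, so reads could be split between H2-K1, H2-D1 and their relatives, and their separate levels are uncertain to that extent.

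Nlrc5, the class I transactivator, had 0 to 17.9 normalized counts, with 2 libraries at 0. At day 7 it had 3.93 and 4.20 in Cdc14ab KO and 1.01 and 3.50 in Cdc14b KO, against 11.9 and 15.5 in Cdc14a KO and 1.16 and 17.9 in wild type. Its 2 wild type clones lay at opposite ends at day 7. Its change in Cdc14a KO, 2.44 ± 1.18, did not pass the test (limma adjusted p = 0.2). At these counts a moderate change was not detectable.

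Set side by side at day 0, the Cdc14b-null and intact lines were apart for the 3 immunoproteasome subunits, Psmb9 being given as a description because its day 0 values were among those that chose it. Psmb8 was 21.5 to 78.4 normalized counts in null lines (median 51.2), against 147 to 386 in intact lines (median 353). Psmb9 was 6.33 to 32.1 in null lines (median 20.7), against 43.1 to 131 in intact lines (median 97.6). Psmb10 was 611 to 963 in null lines (median 781), against 1143 to 1583 in intact lines (median 1297). Leaving out Psmb9, 2 of 8 genes were lower in the null lines without overlap, where 3.67% of all genes were. The other 6 overlapped, Tap1 and B2m among them. Without Cdc14ab KO clone 1, the other 3 null libraries had 44.4 to 78.4 for Psmb8, 14.8 to 32.1 for Psmb9 and 611 to 822 for Psmb10. Leaving out a library cannot make separate ranges overlap, so these values are a description and no check of the division. By limma 0 of the 8 genes tested were called at day 0 (Psmb9 not tested, 3 at an unadjusted p under 0.05), and 0 by edgeR and DESeq2, where limma called 0.0124% of all genes.

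At day 2, whose libraries played no part in the choice of Psmb9, none of the 9 genes was apart between null and intact lines, where 6.07% of all genes were. Psmb9 had 7.53 to 26.9 normalized counts in null lines, against 10.4 to 47.4 in intact lines. limma called 0 of 9 genes there (1 at an unadjusted p under 0.05), edgeR and DESeq2 also 0, where limma called 0% of all genes (1150 at an unadjusted p under 0.05), edgeR 0 and DESeq2 49. An exact two-sided permutation test over the 8 lines gave p values of 0.11 (Psmb10) to 0.97 (H2-D1) over the 10 genes. The smallest p that 4 lines against 4 allow is 0.029, and the lowest after Benjamini-Hochberg adjustment was 0.79.

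At day 7, leaving out Psmb9, 1 of 8 genes (H2-D1) was higher in the null lines without overlap, where 7.72% of all genes were, and 0 of 8 were lower, where 7.87% of all genes were. As a description, since these values chose it, Psmb9 was 23.6 to 60.4 normalized counts in null lines (median 29.4), against 5.43 to 11.4 in intact lines (median 7.76). H2-D1 was 373 to 1739.95 in null lines (median 428), against 216 to 310 in intact lines (median 309). By limma 0 of the 8 genes tested were called (Psmb9 not tested, 1 at an unadjusted p under 0.05), and 0 by edgeR and DESeq2, where limma called 3.75% of all genes. For Cdc14ab KO against wild type alone it was 0 of 8 with each tool (2 at an unadjusted p under 0.05), where limma called 1.53%. Neuron markers moved with this division: their summed level over 16 genes was 1715.83 to 3512.47 normalized counts in null lines, against 4392.26 to 14262.2 in intact lines at day 7. Their part in the day 7 results was not tested.

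Cdc14ab KO clone 3 at day 7 stood apart for Tap1, Tapbp, H2-K1 and H2-D1. It did not for the summed level of 14 other class I genes, 428.062 normalized counts there within a day 7 range of 370.265 to 553.496. Leaving out Psmb9, it had the highest day 7 value for 5 of 8 genes (Tap1, Tapbp, B2m, H2-K1 and H2-D1), as it did for 23.3% of all genes tested. B2m was 1.04 times, Tap1 2.01 times, Tapbp 2.81 times, H2-K1 2.08 times and H2-D1 3.92 times the highest other day 7 library, while Psmb10 was the lowest of the day. Without this library, the null lines of day 7 lay below the intact lines for Tap1, Tapbp and H2-K1. That was seen after the values were known, and the share of all genes that do so without this library was not counted. The library also had the highest summed trophectoderm markers (46724.3 normalized counts over 13 genes, against 6961.11 to 12406.7 in the other 7). Krt7 had 2910 normalized counts there, against 297 to 578 elsewhere at day 7. Summed leukocyte markers were highest there too (1199.41, against 224.861 to 458.152 in the other day 7 libraries), with 8 of the 17 markers, Ptprc and Tyrobp among them, not in the table. Within that list Csf1r averaged 400 ± 452 normalized counts (SD) in Cdc14ab KO at day 7, against 1.79 ± 1.04 at day 0. It averaged 44.6 in Cdc14b KO, 176 in Cdc14a KO and 108 in wild type at day 7. Laptm5 went the other way in Cdc14ab KO, at 185 ± 65.3 at day 7 and 483 ± 159 at day 0. The part of these markers in the class I levels was not tested.

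**Figure D4:**
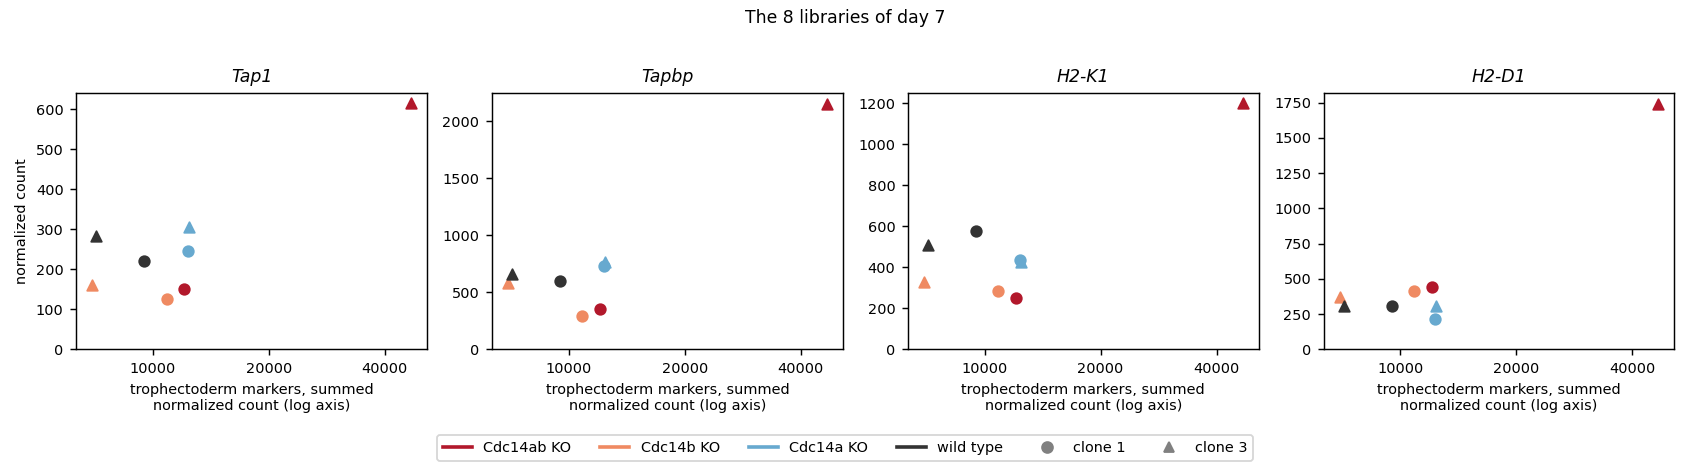
Normalized counts of Tap1, Tapbp, H2-K1 and H2-D1 in the 8 day 7 libraries against the summed normalized count of 13 trophectoderm markers (log axis), coloured by genotype, circles for clone 1 and triangles for clone 3. Cdc14ab KO clone 3 lies alone at the upper right of each panel.

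Among the other proteasome genes, in 4 lists, 6 were called by day 7 in Cdc14a KO, where 9.26% of all genes were called, and 0 in Cdc14b KO, where 4.62% were. The difference between these counts was not tested. Of 11 other 20S core subunits, 2 fell in Cdc14a KO by day 7 (Psma5 by 3.06 ± 0.78, limma adjusted p = 0.02, and Psmb2 by 1.83 ± 0.48, adjusted p = 0.022), and 0 were called in Cdc14b KO. The median change of the list was -0.80 in Cdc14a KO and 0.10 in Cdc14b KO, against 0.03 and 0.05 over all genes. Of 18 subunits of the 19S cap, Psmc3 rose by 1.24 ± 0.34 and Psmc2 fell by 1.68 ± 0.36 in Cdc14a KO. Of 4 proteasome activators, Psme1, which encodes a subunit of the interferon-inducible PA28 cap, fell there by 1.15 ± 0.32 (adjusted p = 0.03). Of 5 assembly factors, Psmg1 fell by 2.96 ± 0.77. None of these lists had a call in Cdc14b KO.

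Taken each on its own, neither single knockout gave a call by day 7 among the rest of the class I and class II genes. Of 24 other class I and class I-like genes, 14 were in the table and 12 tested, with median changes of 0.16 in Cdc14b KO and -0.15 in Cdc14a KO and 0 called in either. Of 12 class II genes, 7 were in the table and 6 tested, with 0 called. Of 11 genes of peptide loading and trimming, 0 were called in either, with medians of -0.39 in Cdc14b KO and -0.35 in Cdc14a KO. Averaged over both single knockouts, the comparison chosen after the data were seen, 1 gene of each of these lists was called, where 17.8% of all genes were. Mr1, a class I-like gene, rose by 2.35 (limma adjusted p = 0.037), the class II gene H2-Eb1 rose by 2.11 (adjusted p = 0.026), and Tpp2, which encodes a cytosolic peptidase, fell by 0.68 (adjusted p = 0.038). Mr1 averaged 7.55 normalized counts at day 7 and 0.78 at day 0. It reached the minimum of the low-value filter only in intact lines at day 7. Its highest value elsewhere was 5.91, in a null line at day 2. The filter thus kept Mr1 through libraries of the later day, so its call cannot serve as a test of a rise. Between null and intact lines at day 7, Canx, which encodes the chaperone calnexin, was lower in the null lines by 0.91 ± 0.21 (limma adjusted p = 0.022).

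Among regulators and interferon pathway genes, counts are to be read against the 4.62% of all genes called in Cdc14b KO and the 9.26% in Cdc14a KO. Jak2, a kinase of interferon and cytokine receptors, rose by 2.17 ± 0.56 in both single knockouts (limma adjusted p = 0.032 in Cdc14b KO, 0.021 in Cdc14a KO). It was the 1 call among 18 genes of interferon reception and signalling in each. Irf2, an interferon regulatory factor, rose in Cdc14a KO by 3.13 ± 0.93 and Atf1 fell by 1.69 ± 0.41, 2 of 15 regulators of class I promoters. In Cdc14b KO the 1 call of that list was Nfyb, a subunit of the CCAAT-binding factor NF-Y, which fell by 1.45 ± 0.26 (adjusted p = 0.0044). Of 47 interferon-stimulated genes, 4 fell and 1 rose in Cdc14a KO, and 1 fell in Cdc14b KO. Ifitm1 was the fall common to both, by 1.92 ± 0.42 in Cdc14a KO and 1.91 ± 0.42 in Cdc14b KO, and Oas2, Zbp1 and Parp9 were the others in Cdc14a KO.

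**Figure D5:**
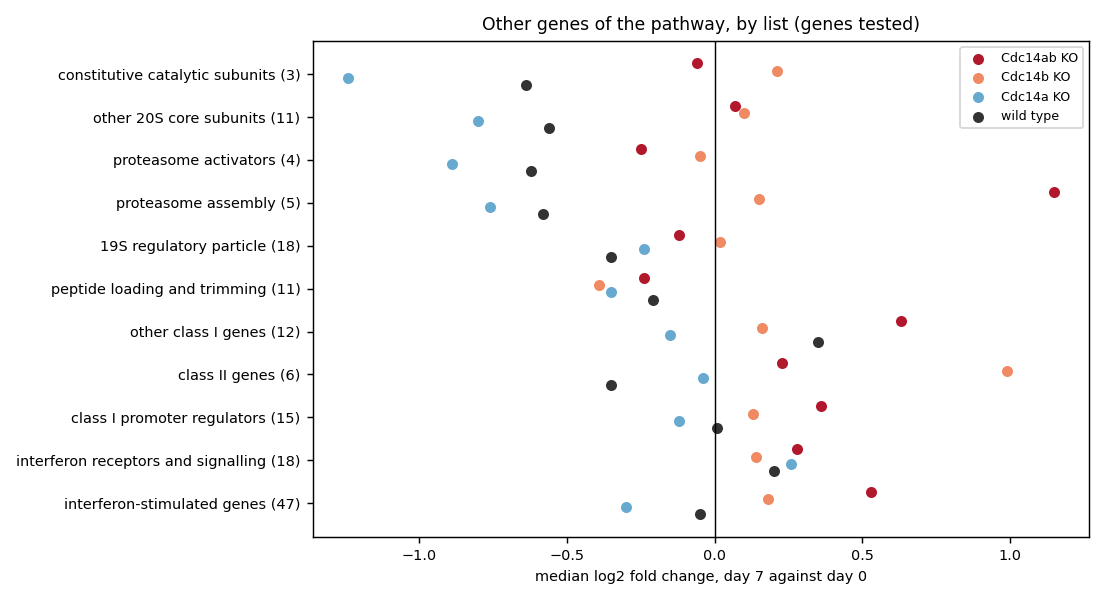
Median log2 fold change by day 7 (day 7 against day 0) of 11 lists of proteasome, antigen presentation and interferon genes in the 4 genotypes, with the number of genes tested in brackets. The list of other 20S subunits stands at -0.80 in Cdc14a KO and 0.10 in Cdc14b KO.

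Of 47 interferon-stimulated genes at day 0, 13 were lower in the Cdc14b-null than in the intact lines without overlap and 0 were higher, where 3.67% of all genes were lower and 3.1% higher. In the others the lines overlapped, and Bst2 had the higher median in the null lines (1315 normalized counts, against 775 in intact lines). The 13 included the interferon-inducible GTPases Gbp2, Gbp3, Gbp7, Igtp and Irgm2. Igtp had 66.5 to 125 normalized counts in null lines, against 237 to 311 in intact lines, and Gbp3 had 54.4 to 100.2 in null lines, against 176 to 280 in intact lines. The median difference of the list was -0.73, against 0.01 over all genes, while limma called 0 of the 47 (12 at an unadjusted p under 0.05). At day 2, 0 of the 47 were apart, and at day 7, 1 was lower and 2 were higher. These GTPases were named after their values were seen.

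At day 0, 1 of 15 regulators of class I promoters (Irf1) was lower in the null lines without overlap. So were 2 of 4 proteasome activators (Psme2 and Psme3) and 2 of 18 genes of interferon reception and signalling (Irf7 and Socs1). The others of these lists overlapped, and 3.67% of all genes were lower without overlap. Irf1 is a transcription factor of the interferon response. It had 118 to 557 normalized counts in null lines, against 629 to 1705 in intact lines. Psme2, which encodes the other subunit of PA28, had 30.4 to 568 in null lines at day 0, against 767 to 1518 in intact lines. The 2 Cdc14ab KO clones were far apart for Psme2 there, averaging 255 ± 317 (SD). That group had the lowest correlation between clones (0.89). Socs1, an inhibitor of JAK signalling induced by interferon, had 3.8 to 44.4 in null lines at day 0, against 67.2 to 148 in intact lines. At day 7 Socs1 stood in the reverse order, as Psmb9 did, with 31.5 to 76.0 in null lines and 10.6 to 23.3 in intact lines. The change by day 7 of null against intact lines was tested for Irf1, Socs1 and Psme2. This comparison was chosen after the data were seen and shares libraries with the choice of Psmb9. It also uses the day 0 values that set these genes apart, so it adds no separate support. It was not rerun with single libraries left out. The change was 2.26 ± 0.59 for Irf1 (limma adjusted p = 0.043) and 3.79 ± 0.96 for Socs1 (adjusted p = 0.04). For Psme2 it was 2.54 ± 0.78, which did not pass (adjusted p = 0.074). In that comparison 0 of the 8 members tested were called (2 at an unadjusted p under 0.05), where 3.26% of all genes were and the other tools were not run, and for H2-D1 it was 2.18 ± 0.69 (adjusted p = 0.08). Psmb9 was not tested there. Psmb7 (2.67 ± 0.64, adjusted p = 0.035), Psmb2 (2.21 ± 0.48, adjusted p = 0.028) and Psma2 (2.62 ± 0.57, adjusted p = 0.029) were the proteasome core subunits called. Also called were Tapbpl of the peptide loading list (2.92 ± 0.70, limma adjusted p = 0.034) and Psmc2 of the 19S cap (1.40 ± 0.36, adjusted p = 0.042). So was Xaf1 of the interferon-stimulated genes (3.25 ± 0.80, adjusted p = 0.038).

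Across the 24 libraries the likeness of Psmb9 to its partners ran over a wide range. On the log2 scale its Pearson r was 0.68 with Psmb8, 0.52 with H2-D1, 0.51 with Tap2, 0.42 with B2m, 0.29 with Psmb10, 0.27 with Tapbp, 0.25 with H2-K1, -0.07 with Tap1 and -0.31 with Nlrc5. Of 11282 genes ranked, the 8 most alike were Sde2 (0.90), Phlda2 (0.86), Klf16 (0.85), Gtf3c5 (0.85), Fbxl6 (0.84), Mknk2 (0.84), Ppp1r15a (0.83) and Tob2 (0.83). Among the partners, Psmb8 came at rank 239, H2-D1 at 1079, Tap2 at 1142, B2m at 1685, Psmb10 at 2533, Tapbp at 2731, H2-K1 at 2903, Tap1 at 6024 and Nlrc5 at 8698. The libraries share groups and scaling, and the r of Psmb9 with library depth was 0.05.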

How the data were processed

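The authors deposited 1 table of normalized counts (a signal: reads of a gene divided by 1 size factor per library), made with DESeq2 per the submitters' processing notes, which also name TopHat2 2.0.10, Bowtie 1.0.0, HTSeq 0.6.1 and the build GRCm38. The annotation is not given in the sources used here. Libraries were QuantSeq 3′ FWD per the labels' protocols, so levels were not divided by length. Dividing each column by its minimum left 100% of the entries whole (tolerance 0.001), which gave whole reads for edgeR 4.0.16 and DESeq2 1.42.0 as alternatives. Reads of Gm42418 were 1.32% to 10.77% of a library, over 7% in 3 libraries.

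limma 3.58.1 in R 4.3.3 was fitted on log2(normalized count + 1) with 12 group means over all 24 libraries (12 residual degrees of freedom, eBayes with trend and robust), for the 16158 genes that reached 10 normalized counts in 2 or more libraries, with Benjamini-Hochberg adjustment over all of them. All adjusted p values are from limma unless another tool is named. The procedure was run on simulated data with large changes in a single contrast and libraries drawn independently. That run did not cover smaller changes, interactions or repeated sampling of a line. With 2 clones per group the spread is borrowed from all groups. The median SE was 0.55 between groups and 0.78 for interactions.

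The 10 genes and the lists were chosen with earlier results of these data known. Named were the 10 genes, Psmb5, Psmb6 and Psmb7, up to 4 called genes of a list with the smallest adjusted p, and the 8 genes most alike to Psmb9 in Pearson r (mean of at least 20 normalized counts, leaving out sex-linked marker, pseudogene and predicted-gene entries). Psme2, Krt7 and genes said so in the text were named after their values were seen. A clone number within a genotype names 1 line, sampled on each day, which pairs its libraries in comparisons of days; over 12 such pairs the correlation of residuals from the group mean was -0.115 to 0.248. Between genotypes only the number is shared. No 2 clones of a group were duplicates (chi-square per gene 21.1 to 118). Alternatives were pseudocounts of 0.25 and 5, no filter and a filter of 50, TMM factors, edgeR, DESeq2, a fit of only the groups compared, clone as random effect, a replicate block, leaving out the libraries rich in Gm42418, and leaving out each library in turn. Figures were drawn with Python 3.11.15 and matplotlib 3.10.9.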

Additional observations from a re-analysis of the deposited data

Results flagged for a closer look

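Psmb9 and H2-D1 had changes by day 7 of opposite sign in different genotypes, in every clone of each. The flag is by sign alone, and the share of all genes that meet it was not counted. For Psmb9 the change on the log2 scale was 2.10 and 1.96 in Cdc14ab KO, against -3.84 and -3.12 in wild type. This is the contrast that chose Psmb9, and the difference was not tested here. For H2-D1 it was 2.82 and 3.43 in Cdc14ab KO, against -0.10 and -0.47 in wild type, which was not tested either because the same contrast was used in the choice. In Cdc14b KO it was 0.84 and 1.12 for H2-D1, against the same -0.10 and -0.47 in wild type. The test of that last difference gave 1.27 ± 0.97 (limma adjusted p = 0.78), which did not pass. Both wild type changes of H2-D1 were smaller than the median SE of 0.55 between groups, so its wild type level was not told from unchanged. Groups of 2 clones are too small for a check of single outlying libraries.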

How the results depend on the processing

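In Cdc14a KO at day 7 against day 0, the 2 genes called became 5 when only the groups compared were fitted (Psmb8, Psmb9, Psmb10, Tap1 and Tapbp) and 0 to 1 when 1 library was left out. There Psmb9 ranged from -3.89 to -2.30 on the log2 scale and Psmb10 from -1.95 to -1.38. The average over both single knockouts gave 1 call (Psmb10) without the 3 libraries rich in Gm42418 and 1 to 2 with 1 library left out, but 3 when only the groups compared were fitted (Psmb9, Psmb10 and Tap1). In that average Psmb9 was -1.70 (adjusted p = 0.063) without those 3 libraries. The cause was not tested. The count of these genes called was 0 under every alternative run for Cdc14b KO at day 7 against day 0, for the interaction and the day 7 comparison of Cdc14b KO with Cdc14a KO, for the day 7 libraries of Cdc14ab KO and wild type, and for null against intact lines at day 2. Other comparisons were run only with limma, edgeR and DESeq2, or with limma alone for the change by day 7 of null against intact lines. DESeq2 alone called Psmb9 in Cdc14a KO at day 2 against day 0 and H2-D1 in Cdc14ab KO at day 7 against day 2. With the replicate block, Psmb9 (-3.10, adjusted p = 0.0069) and Psmb10 (-1.67, adjusted p = 0.018) kept their calls in Cdc14a KO, and the block changed no call of these genes in the comparisons it was run for. Over all genes, 1497 were called in Cdc14a KO and 746 in Cdc14b KO; DESeq2 called 2309 and 1247, the fit of only the groups compared 2394 and 485, and leaving out 1 library 297 to 805 in Cdc14a KO and 178 to 345 in Cdc14b KO. In Cdc14b KO 207 were called without the libraries rich in Gm42418. Between Cdc14ab KO and wild type at day 7, limma called 247 and DESeq2 650. No result reversed. With 2 clones per group, log2 differences near the median SE of 0.55 could not be told from 0, and Tap2 and Nlrc5 were limited by few reads.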

Other observations

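H2-T23, a non-classical class I gene that presents peptides to natural killer cell receptors, was 1 of 12 other class I genes tested that was higher in the null lines without overlap at day 7, where 7.72% of all genes were. It had 299.7 and 170.4 normalized counts at day 7 in Cdc14ab KO and 252 and 322 in Cdc14b KO, against 111 and 68.4 in Cdc14a KO and 115 and 77.7 in wild type. At day 0 the lines overlapped (Cdc14ab KO clone 1 at 6.33, wild type clone 3 at 392). In the same list Mr1 was lower in the null lines without overlap at day 7, where 7.87% of all genes were. It had 1.96 to 5.88 normalized counts in null lines and 6.52 to 20.5 in intact lines. Mr1 passed the low-value filter only through intact libraries of day 7, so this order is a description and no test. Rsad2, which encodes the interferon-inducible protein viperin, had its highest day 7 value in Cdc14ab KO clone 3, with 3424 normalized counts, against 291 to 1550 in the other 7 libraries. These genes were named after their values were seen.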
